A study of Mus musculus with 35 samples.

Results

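Accessible chromatin far from protein-coding genes was followed in mouse cells leaving naive pluripotency. The regions were 2891 tiles of 2 kb, of 48155 open tiles on the autosomes and 1231362 full autosomal tiles in all (6.004% of the open ones). They were chosen by a measured value, a mean log2 RPKM of at least 0 over all 35 libraries, and by position, at least 50 kb from the start and end of, and outside, every protein-coding gene of the GRCm38.p6 annotation. RPKM scales reads to tile length and to the reads of the library. Accessibility was read by ATAC-seq, in which the Tn5 transposase inserts adapters into open DNA. A change per cell and a change in the share of cells with an open site cannot be told apart in such bulk libraries.

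The libraries came from 4 lines. In TET_KO all 3 TET genes (Tet1, Tet2 and Tet3) are knocked out, and TET_WT is the parental wild-type line of TET_KO. In DNMT_KO the genes Dnmt1, Dnmt3a and Dnmt3b are knocked out, and DNMT_WT is its own parental wild-type line. Each line was sampled as embryonic stem cells in 2i and Lif at D0 and as epiblast-like cells at D1 and D2, with 3 libraries per line and day except TET_KO at D2, which had 2. Each knockout is given in the labels as a single line, so a line and its genotype cannot be told apart, and the libraries are not stated to be separate cultures, so p-values measure a spread that may be technical.

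Accessible sites far from genes are often enhancers, which can act over long distances, or promoters of long noncoding RNAs. DNMT enzymes write 5-methylcytosine at CpG dinucleotides and TET enzymes oxidise it, and many distal sites lose methylation when a transcription factor binds them. Naive cells that enter the formative, epiblast-like state change their enhancer use while they gain DNA methylation.

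Few member tiles hold an annotated start site, and the promoter windows of 4 noncoding genes show how unlike these starts are in CpG content. Sequences are from RefSeq (GRCm38.p6), 5′ to 3′ on the gene's strand, from 250 bases before to 50 after the start, with CpG in capitals. Mir205hg (chr1:193510161-193510460, minus strand), the host gene of a microRNA, lies in a tile that rose at D2 in both parental lines. Gm35891 (chr3:51128890-51129189, minus strand) and Gm38823 (chr6:60410946-60411245, plus strand) lie in tiles that fell at D2 in all 4 lines. Tunar (chr12:105336743-105337042, plus strand), a noncoding RNA known from stem cells and neural tissue, lies in an open tile that passed the test in no line.
Mir205hg: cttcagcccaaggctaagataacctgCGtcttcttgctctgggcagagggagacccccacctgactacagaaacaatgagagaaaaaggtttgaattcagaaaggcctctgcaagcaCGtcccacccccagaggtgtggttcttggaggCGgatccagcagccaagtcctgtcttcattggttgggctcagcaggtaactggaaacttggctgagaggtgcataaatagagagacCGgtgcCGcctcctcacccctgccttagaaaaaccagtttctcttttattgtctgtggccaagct
Gm35891: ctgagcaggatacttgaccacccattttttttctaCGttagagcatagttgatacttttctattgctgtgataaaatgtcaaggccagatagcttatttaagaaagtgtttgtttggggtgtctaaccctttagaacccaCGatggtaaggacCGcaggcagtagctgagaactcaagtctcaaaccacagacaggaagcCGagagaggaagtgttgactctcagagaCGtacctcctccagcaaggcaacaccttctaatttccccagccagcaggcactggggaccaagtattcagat
Gm38823: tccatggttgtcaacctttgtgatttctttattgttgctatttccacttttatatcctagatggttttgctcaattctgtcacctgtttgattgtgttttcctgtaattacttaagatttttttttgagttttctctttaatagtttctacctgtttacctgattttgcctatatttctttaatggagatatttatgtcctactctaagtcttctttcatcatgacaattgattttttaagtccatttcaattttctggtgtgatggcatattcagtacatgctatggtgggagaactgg
Tunar: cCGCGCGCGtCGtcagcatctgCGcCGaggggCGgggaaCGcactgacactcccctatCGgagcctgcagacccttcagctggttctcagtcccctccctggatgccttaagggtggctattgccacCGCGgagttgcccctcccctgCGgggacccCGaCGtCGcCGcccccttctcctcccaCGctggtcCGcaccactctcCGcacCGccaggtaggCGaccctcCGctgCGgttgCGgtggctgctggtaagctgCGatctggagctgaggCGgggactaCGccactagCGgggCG
The windows hold 5 CpG in Mir205hg, 5 in Gm35891, 0 in Gm38823 and 30 in Tunar. Over all 233 promoter windows in member tiles, the median observed-over-expected CpG ratio was 0.31, against 0.24 over 11588 noncoding, 0.57 over 21263 protein-coding and 0.38 over all 32851 RefSeq promoter windows. The 28 windows in tiles called lower at D2 in at least 1 line held a median of 5 CpG, the 8 in tiles called higher 8.5 and the 197 in uncalled tiles 6. The GC box, GGGCGG or CCGCCC on the other strand, was in 25.8% of member windows, 16.3% of noncoding, 46.2% of protein-coding and 35.7% of all windows. The octamer ATGCAAAT, or ATTTGCAT on the other strand, was in 3.43% of member windows, 1.87% of noncoding, 1.66% of protein-coding and 1.74% of all windows. These windows were not tested against each other.

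Depth ranged from 4171462 to 23686796 reads in full tiles per library, with a median of 8 to 42 reads per member tile. Mitochondrial reads made up 5.61 to 46.8% of D1 libraries and 0% of D0 and D2 libraries, so D1 was processed otherwise and D1 is set beside D0 only as a description. A Tet3 tile (chr6:83372001-83374000) held 1, 2, 2, 1, 0, 1, 2 and 5 reads in the TET_KO libraries in day order, against 7 to 26 reads in TET_WT libraries. Tests of the Dnmt and other Tet knockouts in the reads are not analysed here. Among the highest tiles over marker genes, naive Tfcp2l1 had group means of 0.70 to 0.80 at D2 and 1.67 to 2.42 at D0, formative Pou3f1 1.24 to 1.46 at D2 and 0.89 to 1.03 at D0, and pluripotency gene Pou5f1 1.45 to 2.23 at D2 and 1.69 to 2.00 at D0 (log2 RPKM). Ranges of the days overlapped for the other markers of these states, except for Esrrb. Esrrb stood at 0.17 to 1.44 at D2 and 1.63 to 1.95 at D0, and Zfp42 at 0.94 to 1.93 at D2 and 1.81 to 2.32 at D0. Formative Fgf5 was 1.88 at D2 and 1.36 at D0 in TET_KO, 1.71 and 0.52 in TET_WT, 0.15 and 0.11 in DNMT_KO, and 0.42 and 0.68 in DNMT_WT. Formative Otx2 was 0.76 at D2 and 0.77 at D0 in TET_KO, 1.86 and 1.38 in TET_WT, 0.65 and 1.29 in DNMT_KO, and 0.59 and 1.31 in DNMT_WT. Sox2 stood at 1.12 to 1.52 at D2 and 1.1 to 1.5 at D0, and Nanog at 0.65 to 1.53 at D2 and 0.98 to 1.82 at D0. Fibroblast Col1a1 stood at 0.36 to 0.91 at D2 and 0.47 to 0.59 at D0, and Thy1 at -0.44 to 0.07 at D2 and -0.68 to -0.12 at D0. Col1a2, the other fibroblast marker, was 0.99 at D2 and -0.13 at D0 in TET_KO, 0.37 and -0.08 in TET_WT, -0.33 and -0.15 in DNMT_KO, and 0.24 and -0.09 in DNMT_WT. In primitive endoderm genes, Gata4 stood at 0.17 to 1.07 at D2 and 0.13 to 0.99 at D0, Gata6 at 0.14 to 0.99 at D2 and 0.22 to 0.93 at D0, and Sox17 at 1.64 to 2.43 at D2 and 1.76 to 2.34 at D0. What part other cell types had in the results was not tested.

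The members were weakly open tiles scattered over the genome. Their mean log2 RPKM had quartiles of 0.12, 0.30 and 0.61 and a highest value of 3.94, while the 45264 other open tiles had quartiles of 0.17, 0.44 and 0.92. The median distance to a protein-coding gene was 112.1 kb and the largest 2187.6 kb, with 1261 different nearest genes. Joined over gaps of up to 10 kb they formed 2056 runs, of which 1575 were single tiles and 38 held 5 or more members. Chromosome 1 held 12.9% of members and 8.51% of open tiles, chromosome 13 6.29% and 3.04%, and chromosome 7 2.80% and 7.56%. Of the members, 789 (27.3%) lay over a noncoding gene, 698 of them over a long noncoding RNA, and 199 (6.88%) over a noncoding start. Of the 2885 members with reads at D0 or D2, 295 had a mean of at least 0 in every group of line and day. None had it in 1 group alone, which a rule on the mean over all libraries makes unlikely. The range of the group means had a median of 1.93 on the log2 scale, and 2832 members had a read in every library.

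At the threshold, the members with the lowest means were nearest Iqsec3 (chr6:121532001-121534000, mean 8e-05), Lgalsl (chr11:20882001-20884000, 0.00019) and Sox2 (chr3:34764001-34766000, 0.00032). The tiles just below it were nearest Sox17 (chr1:4572001-4574000, -0.00018), Cited2 (chr10:17178001-17180000, -0.00053) and Crispld1 (chr1:17930001-17932000, -0.00057). The highest means were those of tiles nearest Samd9l (chr6:3200001-3202000, 3.94), Ddx18 (chr1:122356001-122358000, 2.61), Cr2 (chr1:195240001-195242000, 2.59), Zfat (chr15:68362001-68364000, 2.52) and Gpc5 (chr14:115040001-115042000, 2.48). None of these 5 was called in a parental line between D2 and D0. Of the 2891 members, 6 held reads at D1 alone and could not be tested, which left 2885.

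The share of autosomal reads that fell in member tiles was lowest in DNMT_KO at D2, where the share in other open tiles was lowest too. Without the 6 untested tiles it was 0.528, 0.523 and 0.563% in the DNMT_KO libraries at D2 and 0.664, 0.967 and 0.983% at D0. In DNMT_WT it was 0.712, 0.649 and 0.6% at D2 and 0.890, 0.791 and 0.754% at D0. The other open tiles held 12.1 ± 0.144% of reads at D2 and 14.3 ± 1.94% at D0 in DNMT_KO, and 12.4 ± 0.765% at D2 and 13.2 ± 0.944% at D0 in DNMT_WT (SD, n = 3 each). As a share of the reads in all open tiles, members held 4.24 ± 0.155% at D2 and 5.70 ± 0.468% at D0 in DNMT_KO, and 4.99 ± 0.227% at D2 and 5.81 ± 0.601% at D0 in DNMT_WT (SD, n = 3 each). For the share of autosomal reads, all D2 libraries of both DNMT lines lay below all D0 libraries of the same line. In TET_KO the mean was 0.782 ± 0.130 at D0, 0.815 ± 0.154 at D1 and 0.707 ± 0.064% at D2 (SD, n = 3, 3 and 2). In TET_WT it was 0.703 ± 0.201, 0.785 ± 0.132 and 0.736 ± 0.201% (SD, n = 3 each), and the days of both TET lines overlapped. DNMT_KO had 0.807 ± 0.177% at D1 and DNMT_WT 0.748 ± 0.021% (SD, n = 3 each).

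**Figure D1:**
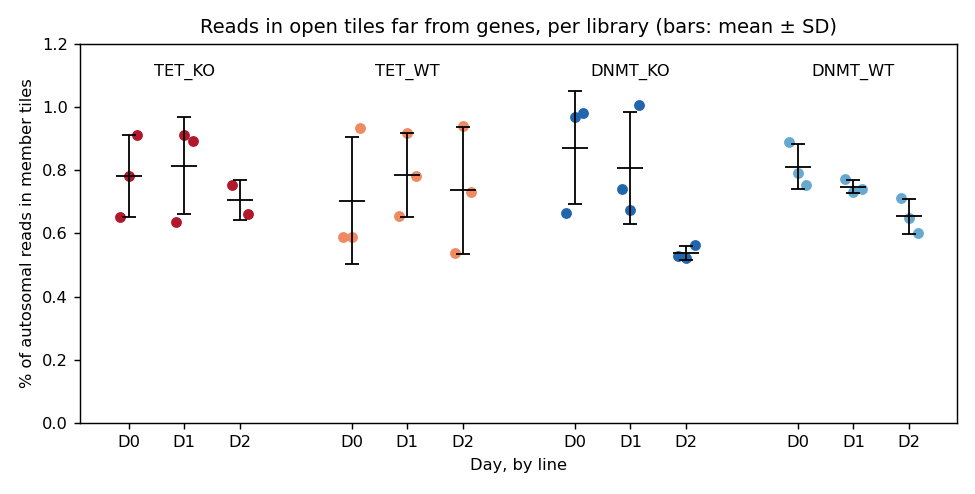
Percent of autosomal reads in member tiles (y axis) for each library (points) by line and day (x axis), without the 6 members read at D1 alone; bars are the mean ± SD. The 3 DNMT_KO libraries at D2 lie between 0.523 and 0.563%, below every other DNMT_KO library.

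Among called members, falls outnumbered rises from D0 to D2 in both DNMT lines. Of 2885 tested members, 484 (16.8%) were lower and 30 (1.04%) higher at D2 than D0 in DNMT_KO, where 2.5% and 0.686% of all 122723 tested tiles were called lower and higher. In DNMT_WT 293 members (10.2%) were lower and 61 (2.11%) higher, against 2.08% and 0.768% of all tested tiles. The called falls had a median of -1.77 on the log2 scale in DNMT_KO and -1.70 in DNMT_WT. Calls are limma's 2-sided test with Benjamini-Hochberg adjustment over all tested tiles at an adjusted p under 0.05. The median log2 difference of all tested members was -0.38 in DNMT_KO and -0.15 in DNMT_WT. All calls together, 514 in DNMT_KO and 354 in DNMT_WT, came to 335 in DNMT_KO with its D0 replicate 2 left out, and in DNMT_WT to 227 and 224 with its D0 replicates 1 and 2 left out in turn.

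In the TET lines fewer members were called. The counts are not like for like, since TET_KO had 2 libraries at D2 and TET_WT libraries differed more within groups. The chi-square per degree of freedom between libraries (1 at sampling noise) reached 3.39 at D0 and 2.72 at D2 in TET_WT. In the DNMT lines it reached 1.87 at these days. Whether this bears on the number of calls was not tested. Falls outnumbered rises in TET_KO and not in TET_WT. TET_KO had 121 members (4.19%) lower and 26 (0.901%) higher at D2, against 1.16% and 0.244% of all tested tiles. TET_WT had 84 (2.91%) lower and 101 (3.5%) higher, against 1.08% and 0.583%. The 147 calls of TET_KO came to 97 with its D0 replicate 2 left out, 63 with D2 replicate 1 and 51 with D2 replicate 3, and the 185 of TET_WT to 101, 101 and 95 with D0 replicates 1 and 2 and D2 replicate 3. The split in TET_WT rested on single libraries: it was 32 lower and 140 higher when replicate 3 of D0 was left out, 34 and 108 when replicate 1 of D2 was, and 95 and 38 when replicate 2 of D2 was. Replicate 3 at D0 and replicate 2 at D2 were the TET_WT libraries with the largest shares of reads in members, 0.935 and 0.940%, against 0.538 to 0.730% in the other D0 and D2 libraries of that line.

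A mean over all days, D1 included, chose the members, and 1124 of the tested ones fell below 0 without the D1 libraries. Among the 1761 that stayed at or above 0, 370 (21.0%) were lower and 14 (0.795%) higher at D2 in DNMT_KO. In DNMT_WT the counts were 217 (12.3%) and 30 (1.70%), and in TET_KO 93 and 12. In TET_WT they were 64 lower and 58 higher, so falls outnumbered rises there, the reverse of the 84 and 101 among all tested members. The 45263 other open tiles, for which the D1 libraries were not taken out of the mean, are thus not a like set. They were called lower in 3.14% of cases in DNMT_KO, 2.72% in DNMT_WT, 1.56% in TET_KO and 1.39% in TET_WT. They were called higher in 0.965%, 1.08%, 0.327% and 0.656% in the same order. The difference between members and other open tiles was not tested.

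The share of tiles that closed grew with distance from genes in the DNMT lines. In DNMT_KO, 2.5% of open tiles inside genes, 3.85% of those under 10 kb away and 6.81% of those 10 to 50 kb away were called lower at D2. Among members the share was 11.6% at 50 to 100 kb (n = 1289), 13.5% at 100 to 200 kb (n = 763), 21.7% at 200 to 500 kb (n = 538) and 38.6% at 500 kb or more (114 of 295). The median log2 difference over the same 4 classes of members was -0.21, -0.39, -0.55 and -1.12. DNMT_WT ran from 2.09% inside genes to 8.38% at 50 to 100 kb and 19% (56 of 295) at 500 kb or more. The 4 classes had like mean levels, with medians of 0.30, 0.29, 0.32 and 0.31 over all libraries in order of distance. Some contrasts within a day varied with distance too. The median log2 difference of TET_KO minus TET_WT over the 4 classes was 0.07, 0.19, 0.35 and 0.5 at D0. At D2 it was 0.04, 0.08, 0.24 and 0.47. TET_KO at D0 was called higher in 0.931, 1.31, 2.23 and 3.05%, against 0.214% of all tested tiles. Medians of DNMT_KO minus DNMT_WT were -0.05, -0.04, -0.05 and 0.01 at D0, and -0.17, -0.29, -0.48 and -0.58 at D2. None of this was tested.

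In the TET lines the share of falls was also higher outside genes than inside them, but varied little among the members. In TET_KO it was 1.08% inside genes, 2.47% under 10 kb away, 3.86% at 10 to 50 kb, and 4.34, 3.54, 4.28 and 5.08% over the 4 classes of members. In TET_WT it was 0.996% inside genes, 1.83% under 10 kb away, 3.7% at 10 to 50 kb, and 3.34, 2.62, 2.42 and 2.71% over the members. Rises in TET_WT were more frequent farther from genes, with 0.566% of open tiles inside genes, 2.25% at 50 to 100 kb and 5.42% (16 of 295) at 500 kb or more. The rises of TET_WT over all members ran from 38 to 140 with 1 library left out. Rises by distance were not rerun under other settings. Rises in TET_KO were 0.301% inside genes, 0.388% at 50 to 100 kb, 1.86% at 200 to 500 kb and 1.36% at 500 kb or more. These trends were not tested. Over 16 alternative settings the share of falls at 500 kb or more exceeded that at 50 to 100 kb in all 16 for DNMT_KO, where it lay between 21.0 and 43.7%. The same held in 16 of 16 for DNMT_WT (8.81 to 20.7%), 9 of 15 for TET_KO and 9 of 16 for TET_WT. These counts share the libraries and are no test.

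**Figure D2:**
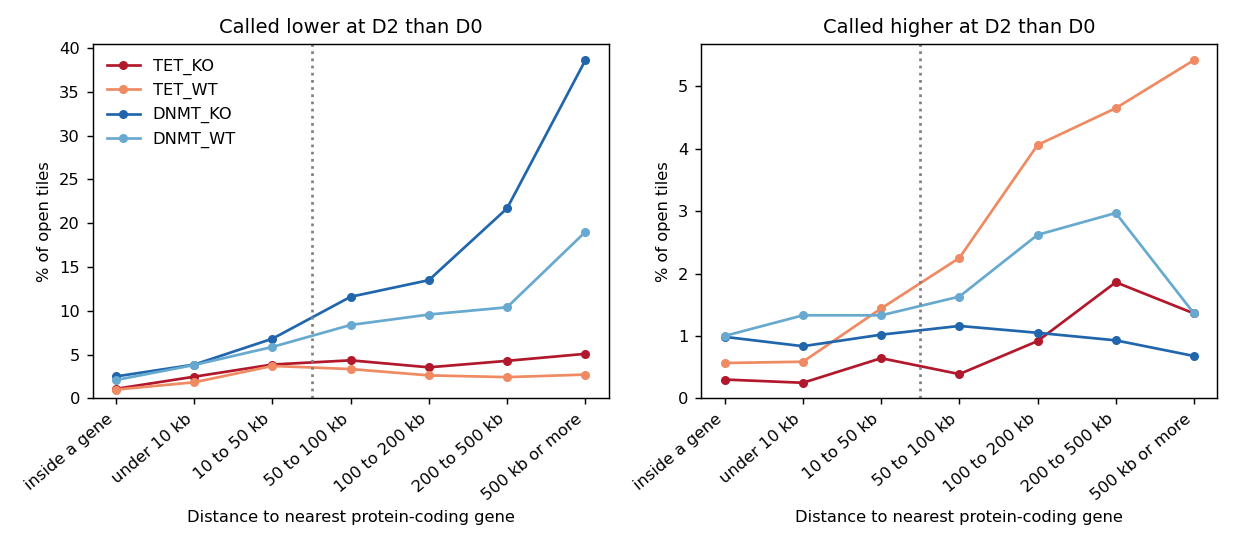
Percent of open autosomal tiles called lower (left) and higher (right) at D2 than D0 (y axes, scaled differently) by distance to the nearest protein-coding gene (x axis) in each line; members lie right of the dotted line. DNMT_KO climbs to 38.6% called lower at 500 kb or more.

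Calls shared between lines were compared with those over all tested tiles. TET_WT and DNMT_WT, which share no library, had 58 members (2.01%) lower in both, against 0.555% of all tested tiles. These were 69.0% of the TET_WT falls and 19.8% of the DNMT_WT falls among members, and the shares over all tested tiles were 51.2% and 26.7%. They had 25 members (0.867%) higher in both, against 0.131% of all tested tiles, which made 24.8% of the rises in TET_WT and 41.0% in DNMT_WT (22.5% and 17.1% over all tested tiles), and 0 called in opposite directions. Across the 2885 tiles the changes of these parental lines had Pearson's r = 0.655 and Spearman's rho = 0.607, a description across tiles, which are not independent. DNMT_KO and DNMT_WT shared 218 falls (7.56% of members, against 1.01% of all tested tiles), 45.0% of those in DNMT_KO and 74.4% in DNMT_WT, where the shares over all tested tiles were 40.4% and 48.7%. TET_KO and TET_WT shared 45 (1.56%, against 0.416%), 37.2% and 53.6% of their falls, and 36% and 38.4% over all tested tiles. Lower in all 4 lines were 30 members (1.04%, against 0.254%) and higher in all 4 were 5 (0.173%, against 0.0228%), while 2137 (74.1%, against 93.7%) were called in no line. None of these shares was tested against all tiles.

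**Figure D3:**
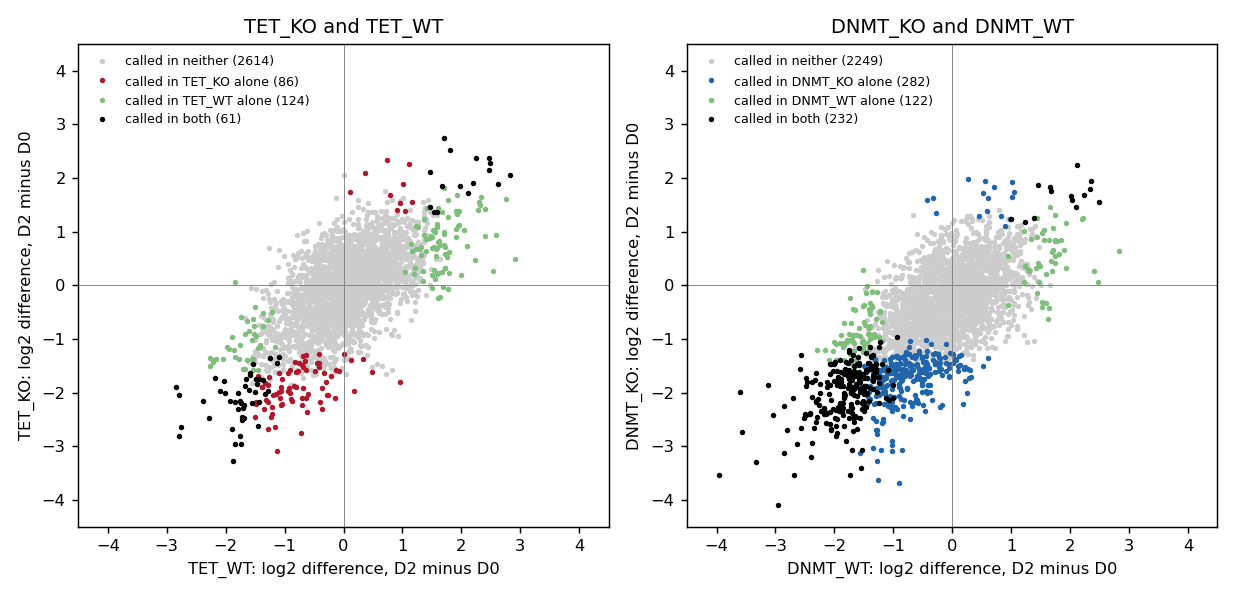
Log2 difference D2 minus D0 of each tested member in the knockout (y axis) and its parent (x axis) for TET (left) and DNMT (right), coloured by the line in which it was called. The right panel holds 282 members called in DNMT_KO alone and 122 in DNMT_WT alone.

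The clearest shared fall lay 72.6 kb from Atp2b1, which encodes a plasma membrane calcium pump, over the noncoding gene Gm34346 (chr10:98840001-98842000). Values below are quantile-normalised log2 RPKM per library. In TET_KO the tile stood at 0.16 and -0.26 at D2 and at 2.67, 2.2 and 2.91 at D0, and in TET_WT at -0.53, -0.18 and -0.23 at D2 and 1.93, 2.5 and 2.91 at D0. In DNMT_KO it stood at -1.35, -0.06 and -1.22 at D2 and 1.77, 2.52 and 2.43 at D0, and in DNMT_WT at 0.13, -0.86 and -0.66 at D2 and 2.31, 2.69 and 2.15 at D0. Every D2 library lay below every D0 library. The log2 differences with SE were -2.64 ± 0.44 in TET_KO, -2.76 ± 0.39 in TET_WT, -3.12 ± 0.39 in DNMT_KO and -2.85 ± 0.39 in DNMT_WT, with adjusted p of 7.61e-05, 2.68e-06, 5.11e-08 and 8.11e-07 in limma's test.

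Other falls were as broad, near Galnt13, a glycosyltransferase gene, and near Noct, the gene of nocturnin. The Galnt13 tile (chr2:55222001-55224000, 103.7 kb) stood at -3.07, -0.90 and -0.63 at D2 in DNMT_KO, against 1.83, 2.13 and 2.05 at D0, and at -2.04, -3.02 and -0.66 in DNMT_WT, against 2.16, 1.97 and 2.01. Its log2 differences were -2.47 in TET_KO, -2.29 in TET_WT, -3.53 in DNMT_KO and -3.95 in DNMT_WT. The tile 94.4 kb from Noct, which holds the Gm35891 start printed above, changed by -2.05 in TET_KO, -2.80 in TET_WT, -2.39 in DNMT_KO and -2.5 in DNMT_WT. A tile 81.1 kb from Nwd2 (chr5:63566001-63568000) changed by -2.80, -2.80, -1.98 and -3.60 in that order of lines. All of these were called in all 4 lines. The Gm38823 tile changed by -1.34 in TET_KO, -1.09 in TET_WT, -2.09 in DNMT_KO and -1.01 in DNMT_WT, and was likewise called in all 4 lines.

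The broadest rise lay 885.7 kb from Ccdc85a over the noncoding gene Gm12077 (chr11:27498001-27500000). In TET_WT it stood at 0.62, 1.64 and 0.77 at D2 and -1.80, -1.87 and -1.80 at D0, and in DNMT_WT at 1.45, 2.06 and 1.46 at D2 and -0.73, -0.68 and -0.71 at D0. In TET_KO it stood at 1.42 and 1.83 at D2 and -0.88, -0.22 and -0.17 at D0, and in DNMT_KO at 0.03, 0.67 and 0.92 at D2 and -0.95, -2.03 and -1.21 at D0. Every D2 library lay above the D0 libraries of its line, and the differences were 2.05, 2.83, 1.94 and 2.36 in TET_KO, TET_WT, DNMT_KO and DNMT_WT, all called. A tile 487.2 kb from Kcna4, a potassium channel gene (chr2:107814001-107816000), rose by 2.37 in TET_KO, 2.25 in TET_WT and 2.83 in DNMT_WT, with 0.65 ± 0.51 in DNMT_KO (adjusted p = 0.606 in limma's test). A tile 1500.7 kb from Slc10a2, a bile acid transporter gene (chr8:6606001-6608000), rose in all 4 lines, by 2.74 ± 0.48 in TET_KO, 1.70 ± 0.43 in TET_WT, 1.46 ± 0.43 in DNMT_KO and 2.10 ± 0.43 in DNMT_WT. The Mir205hg tile (chr1:193510001-193512000) rose by 1.37 in TET_WT (adjusted p = 0.0429) and 2.22 in DNMT_WT (adjusted p = 9.16e-05). Its differences of 1.24 in TET_KO and 1.26 in DNMT_KO missed the threshold (adjusted p = 0.167 and 0.051, limma).

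**Figure D4:**
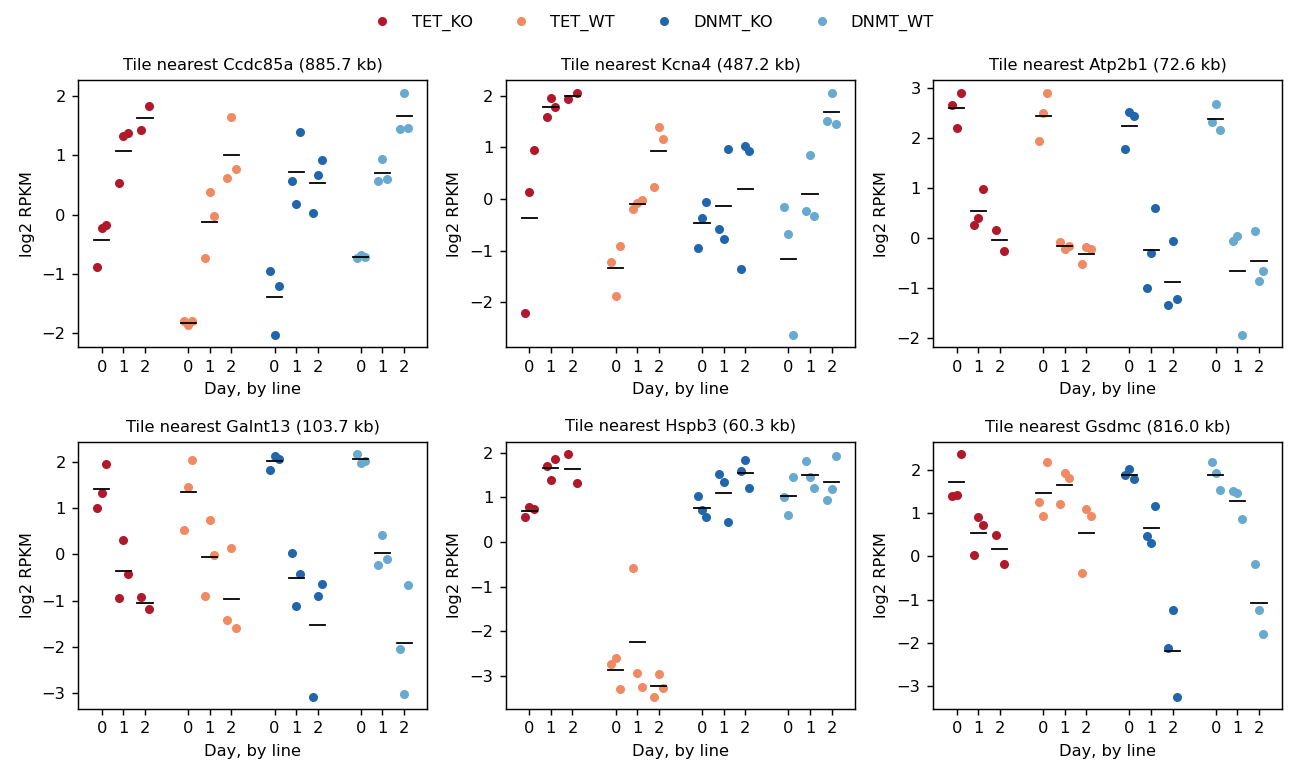
Quantile-normalised log2 RPKM (y axes, scaled per panel) of 6 member tiles by line and day (x axes); points are libraries and bars the group means. The Ccdc85a tile is higher and the Atp2b1 tile lower at D2 than D0 in each line, and the Hspb3 tile is low in TET_WT alone, with means of -3.24 to -2.25.

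The falls of DNMT_KO named below, among its largest, lay at distances from 103.7 to 953.0 kb. A tile 816.0 kb from Gsdmc, a gasdermin gene (chr15:62958001-62960000), stood at -2.12, -1.23 and -3.24 at D2 and 1.88, 2.01 and 1.78 at D0 in DNMT_KO, a change of -4.09 ± 0.40 (adjusted p = 1.4e-11, limma). In DNMT_WT it stood at -0.18, -1.23 and -1.80 at D2 and 2.18, 1.92 and 1.54 at D0, a change of -2.95 ± 0.40. It changed by -1.57 in TET_KO, which was called, and by -0.91 in TET_WT, which was not (adjusted p = 0.34, limma). The tile 321.1 kb from B020011L13Rik (chr1:117458001-117460000) stood at -1.69, -1.60 and -1.22 at D2 in DNMT_KO, against 1.59, 2.55 and 2.41 at D0. In DNMT_WT the same tile stood at 1.02, 0.72 and 0.48 at D2 and 1.88, 1.77 and 1.27 at D0, where its change of -0.90 did not pass (adjusted p = 0.21, limma). The tile nearest Serpinb8, a serine protease inhibitor gene (chr1:108562001-108564000, 953.0 kb), changed by -3.62 in DNMT_KO, a tile 108.2 kb from Cntnap5b (chr1:99662001-99664000) by -3.54, and the Galnt13 tile by -3.53.

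Tiles nearest listed developmental genes were called in both directions. These lists are small, and the shares called lower among all members were 4.19% in TET_KO, 2.91% in TET_WT, 16.8% in DNMT_KO and 10.2% in DNMT_WT, with 0.901, 3.5, 1.04 and 2.11% higher. The counts below were not tested against these shares. Members lay nearest 7 of 21 naive, 4 of 21 formative, 7 of 20 neuroectoderm and 2 of 10 core pluripotency genes. Neighbouring tiles of a locus are counted separately. Of 23 members nearest a naive pluripotency gene, 0 rose and 0 fell in TET_KO, 2 rose and 2 fell in TET_WT, 2 rose and 4 fell in DNMT_KO, and 1 rose and 2 fell in DNMT_WT. Near Klf4, a naive-state factor, a tile 51.1 kb away (chr4:55474001-55476000) fell by 1.67 in TET_WT, 2.72 in DNMT_KO and 1.69 in DNMT_WT, with -1.56 ± 0.47 in TET_KO (adjusted p = 0.0776, limma). A tile nearest Nr5a2, a nuclear receptor of the naive state (chr1:136738001-136740000), instead rose by 1.59 in DNMT_KO and 2.04 in DNMT_WT. It lies in a run of 8 members between Nr5a2 and Zfp281, each 82.6 to 102.6 kb from the nearer gene. Near formative genes (13 members), TET_KO had 0 rises and 0 falls, TET_WT 1 and 0, DNMT_KO 1 and 1, and DNMT_WT 2 and 0. A tile 166.9 kb from Sox4 (chr13:28780001-28782000) rose by 1.76 in TET_WT and 1.71 in DNMT_WT.

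Neuroectoderm genes had 18 members nearby, with 0 rises and 0 falls in TET_KO, 3 and 0 in TET_WT, 2 and 1 in DNMT_KO, and 2 and 1 in DNMT_WT. A tile 54.3 kb from Lhx2, a LIM homeobox gene (chr2:38424001-38426000), rose by 1.96 ± 0.41 in TET_WT, 1.79 ± 0.41 in DNMT_KO and 2.34 ± 0.41 in DNMT_WT, with 1.39 ± 0.46 in TET_KO (adjusted p = 0.125, limma). A tile 78.4 kb from Sox1, a neural SOX factor (chr8:12478001-12480000), stood at 1.54, 1.90 and 1.02 at D2 and -0.73, -0.36 and -1.21 at D0 in DNMT_KO, and at 1.45, 1.66 and 1.00 at D2 and -0.15, -0.98 and -1.14 at D0 in DNMT_WT. It rose in TET_WT by 1.35, and TET_KO had 0.30 and 0.02 at D2 and -0.06, -0.51 and 0.26 at D0, a difference of 0.26 ± 0.40. A tile 522.1 kb from Zic1 (chr9:90834001-90836000) rose in TET_WT by 2.54 ± 0.46, and its differences were 0.27 in TET_KO, -0.88 in DNMT_KO and -0.04 in DNMT_WT.

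Few members lay near genes of other lineages. Haematopoietic regulators had 4, primitive streak genes 4, trophoblast genes 3 and fibroblast genes 2, with 0 called in any of the 4 day contrasts. Primitive endoderm genes had 5, of which a tile nearest Dab2, an endocytic adaptor gene (chr15:6030001-6032000, 267.8 kb), fell by 2.63 in DNMT_KO and 1.84 in DNMT_WT. These shares are over members of each list and were not tested.

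Core pluripotency genes had 19 members nearby, all nearest Sox2 or Zfp281. They had 0 rises and 4 falls in TET_KO, 3 and 2 in TET_WT, 0 and 2 in DNMT_KO, and 1 and 0 in DNMT_WT. The 4 falls in TET_KO lay 91.5 to 111.5 kb from Sox2. They were in or near the Sox2 control region, a known distal enhancer of mouse embryonic stem cells. The 2 falls in TET_WT and the 2 in DNMT_KO lay at 2 of these tiles. The most accessible of these tiles (chr3:34760001-34762000) stood at 0.49 and 0.17 at D2 and 2.26, 1.71 and 1.81 at D0 in TET_KO, and at 2.02, 1.93 and 2.12 at D2 and 2.08, 2.24 and 1.99 at D0 in TET_WT. It changed by -1.60 ± 0.29 in TET_KO (adjusted p = 0.000386) and -0.08 ± 0.26 in TET_WT (adjusted p = 0.98, limma). At D2 it was lower by a log2 difference of -1.69 in TET_KO than in TET_WT (adjusted p = 0.000737, limma), but the difference between the 2 changes over days was called in no member. In DNMT_KO the change was -0.45 and in DNMT_WT -0.54, neither called. The neighbouring tile chr3:34756001-34758000 fell in TET_KO by 1.44, in TET_WT by 1.13 and in DNMT_KO by 1.04, and had -0.71 in DNMT_WT. The tile 91.5 kb away (chr3:34744001-34746000) changed by -2.19 in TET_KO, -1.56 in TET_WT and -1.69 in DNMT_KO, all called. In DNMT_WT it had -0.6, which was not called.

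The 3 longest runs of members held few calls. A run of 13 near Tmem17 over Gm12052 (chr11:22588001-22632000) had 0 calls between D2 and D0 in any line. A run of 13 at 229.0 to 253.0 kb from Enc1, partly over Lncenc1, a noncoding RNA of naive stem cells (chr13:97482001-97508000), had 2 falls in TET_KO and none in the other lines. Its median log2 difference was -0.98 in TET_KO, -0.01 in TET_WT, 0.39 in DNMT_KO and 0.30 in DNMT_WT. Another run of 13, between Sox1 and Spaca7 (chr8:12454001-12506000), had the Sox1 tile above as its only call between D2 and D0. Among the next runs, of 12 members, 1 between Fam53a and Nkx1-1 (chr5:33488001-33544000) had 2 falls in TET_KO, 1 in TET_WT, 2 in DNMT_KO and 1 in DNMT_WT, and 1 between Gadd45a and Serbp1 (chr6:67128001-67206000) had 2 rises in each line.

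At D0, TET_KO differed from TET_WT in 52 members, 43 (1.49%) higher and 9 (0.312%) lower, against 0.214% and 0.22% of all tested tiles. At D1 it was 11 (0.381%) higher and 5 (0.173%) lower, against 0.0505% and 0.0595%, and at D2 6 (0.208%) higher and 9 (0.312%) lower, against 0.0399% and 0.119%. The D0 count rose to 130 higher and 12 lower without TET_WT D0 replicate 3. All calls at D0 came to 10 and 11 with TET_WT replicates 1 and 2 left out, 29 and 16 with TET_KO replicates 2 and 3, and 4 on the deposited values. The 16 calls at D1 came to 7 and 9 with TET_WT replicates 1 and 3 left out. The 15 at D2 came to 6 with TET_KO replicate 1 left out and to 9, 29 and 9 with TET_WT replicates 1, 2 and 3. The values as deposited were shifted by -0.27 at D1 and -0.15 at D2 in the median of all tested tiles, and the differences given here are relative to that shift.

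The members higher in TET_KO than in TET_WT at each day numbered 4 among those named. The largest lay 60.3 kb from Hspb3, a small heat shock protein gene (chr13:113724001-113726000). At D0 it stood at 0.56, 0.78 and 0.73 in TET_KO and -2.74, -2.60 and -3.29 in TET_WT, and at D2 at 1.97 and 1.32 in TET_KO and -3.47, -2.97 and -3.27 in TET_WT. The DNMT_KO and DNMT_WT libraries lay between 0.44 and 1.93 at all days, so TET_WT was the line that stood apart. The log2 difference was 3.57 ± 0.42 at D0, 3.91 ± 0.42 at D1 and 4.88 ± 0.47 at D2. A tile 65.7 kb from Epdr1 (chr13:19524001-19526000) differed by 2.57, 2.73 and 3.65 at D0, D1 and D2, its neighbour chr13:19522001-19524000 by 2.04, 2.02 and 2.79, and a tile 201.2 kb from Cntn5, a neural adhesion gene (chr9:11106001-11108000), by 1.58, 2.3 and 1.89.

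Lower members of TET_KO gathered on chromosome 8. All 9 members lower at D0 lay there, 3 of 5 at D1 and 3 of 9 at D2, among 369 members of that chromosome. The tile nearest Sall1, a zinc finger gene (chr8:88944001-88946000), stood at -0.54, -2.84 and -0.80 in TET_KO and 0.83, 0.62 and -0.06 in TET_WT at D0, a difference of -1.86 ± 0.40. Members on chromosome 8 had median differences of -0.34, -0.36 and -0.31 at D0, D1 and D2, and on chromosome 14 of -0.23, -0.43 and -0.28. All tested tiles shifted there too, by -0.52, -0.50 and -0.47 on chromosome 8 and -0.45, -0.39 and -0.38 on chromosome 14. On chromosome 6 the members had smaller differences of -0.04, -0.10 and -0.09, and all tested tiles -0.19, -0.21 and -0.15. With each chromosome centred, an alternative added after seeing the data, 18 of 2885 members were higher and 1 lower at D0. It was 10 and 2 at D1, and 4 and 5 at D2. Over all tested tiles the shares higher and lower were then 0.0856% and 0.0326% at D0, 0.0277% and 0.0155% at D1, and 0.0212% and 0.0473% at D2. DNA copy number was not tested.

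**Figure D5:**
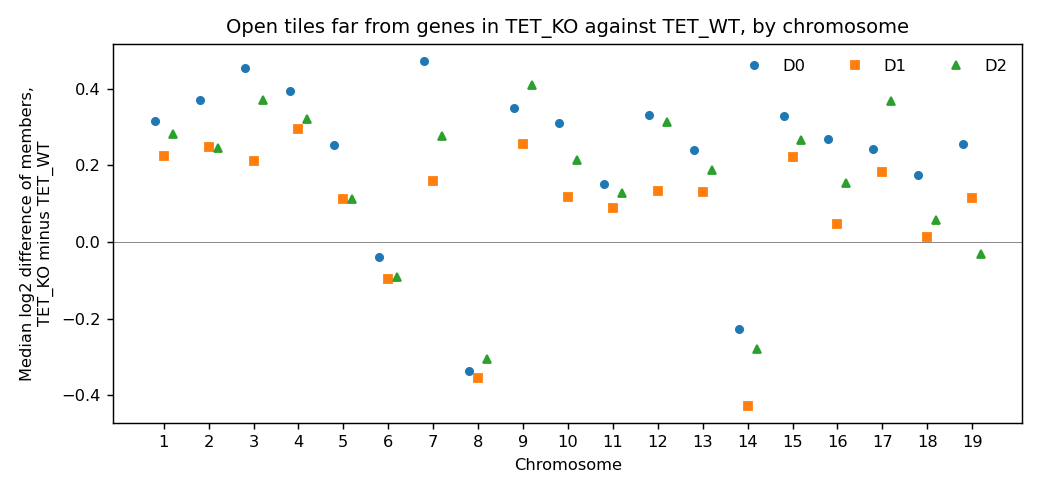
Median log2 difference TET_KO minus TET_WT of member tiles (y axis) per chromosome (x axis) at D0, D1 and D2. Chromosomes 8 and 14 lie at -0.23 to -0.43 at each day, and chromosome 6 at -0.04 to -0.10.

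No member was called different between DNMT_KO and DNMT_WT at D0 or D1. The calls higher and lower were 0 and 0 at D0, against 0% and 0% of all tested tiles, with 147 members at an unadjusted p under 0.05. At D1 they were 0 and 0, against 0.00163% and 0.00244%, with 217. At D2 they were 0 higher and 9 (0.312%) lower, against 0.0106% and 0.0293%. Those 9 included the tile nearest B020011L13Rik described above, with a difference of -2.24 ± 0.37 (adjusted p = 0.00164), and tiles 1035.2 kb from Cntn5 (chr9:11940001-11942000, -2.12 ± 0.36) and 79.1 kb from Rpap3 (chr15:97594001-97596000, -2.03 ± 0.38). The voom test on recovered reads called 0 at D2, and so did 3 other settings, and 2 were called with DNMT_WT replicate 2 left out.

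The median member at D2 was lower in DNMT_KO by a log2 difference of -0.29, against -0.04 at D0. The change from D0 to D2 itself was called different between knockout and parent in no member. For TET 0 were called higher and 0 lower, against 0% and 0.000815% of all tested tiles, with 178 members at an unadjusted p under 0.05. For DNMT it was 0 and 0, against 0% and 0%, with 313. Whether DNMT_KO and DNMT_WT differ in their number of falls was not tested.

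D1 is described without a test. After quantile normalisation the median member differed between D1 and D0 by 0.06 in TET_KO, 0.18 in TET_WT, -0.06 in DNMT_KO and -0.04 in DNMT_WT, and on the deposited values by 0.51, 0.81, 0.47 and 0.55. In the Atp2b1 tile the D1 means were 0.54 in TET_KO, -0.16 in TET_WT, -0.24 in DNMT_KO and -0.66 in DNMT_WT, nearer to D2 than to D0. In the Gsdmc tile of DNMT_KO the means were 1.89, 0.65 and -2.20 at D0, D1 and D2. Day and processing cannot be told apart in these D1 values.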

How the data were processed

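The submitters' processing notes name Trim Galore 0.6.5, cutadapt 2.3, Bowtie2 2.4.1 and the build GRCm38. Read shifting, duplicate removal and masking are not given in the sources used here. Per the file headers, the matrix deposited by the authors holds log2 RPKM per 2 kb tile. Values were whole reads (100% within 0.01 read), with an empty tile at 0.9 read.

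Tested tiles were the highest 10% by mean (122723 of 1227228, lowest mean -0.513), quantile normalised and fitted with limma 3.58.1 in R 4.3.3, with eBayes trend, no block and a mean for each line and day (23 residual degrees of freedom, median prior 56.4), in 12 contrasts. The test was also run on simulated data. Gene distances used 21631 protein-coding genes; the annotation gives no strand. Pairs of libraries within a group differed by a chi-square per degree of freedom of 1.1 to 3.79 over open tiles. No pair was at sampling noise (1), and each library was counted as 1 sample; this does not show that they were separate cultures. Intervals and p-values do not cover PCR duplication.

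The members and lists were chosen with earlier results of these data known. Named tiles were the largest non-overlapping calls per contrast, 1 per run; the highest and threshold members; the longest runs; calls shared by both parents; members nearest listed genes; and tiles called at all 3 days. The Sox2, Lncenc1 and Mir205hg loci and noncoding starts were chosen after their values were seen. Alternatives were other scalings, filters, voom, thinning to 3152877 reads, a replicate block, the groups of a contrast alone and each library left out.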

Additional observations from a re-analysis of the deposited data

Results flagged for a closer look

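Reads outside the tests lay in 6 members, where 410946 reads were counted over the D1 libraries and 0 over the D0 and D2 libraries. They were a pair of tiles over 1030 kb from Lrrc4c (chr2:98662001-98664000 and chr2:98666001-98668000) and 4 adjoining tiles of chr17:39842001-39850000, over or beside the ribosomal RNA gene Rn18s-rs5. The tile with most reads, chr2:98666001-98668000, held 5484 to 26832 per D1 library. With these tiles counted, the share of autosomal reads in members at D1 was 1.403% in TET_KO, 1.543% in TET_WT, 1.237% in DNMT_KO and 1.191% in DNMT_WT.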

How the results depend on the processing

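The median depth of 8 to 42 reads per member tile limits calls of small changes. Of 90 calls at named tiles, 46 held whichever library was left out. None changed direction, but many of these tiles were chosen for large differences between non-overlapping libraries, which makes a reversal unlikely. The replicate block kept 90, the highest 5% of tiles 89, chromosomes centred 80, D1 libraries left out 79, the groups of the contrast alone 78, voom 70, no filter 67, median centring 66, deposited values 65 and thinning 38. The Zic1 tile in DNMT_WT, uncalled at -0.04, ran from -0.37 to 0.32 with 1 library left out and changed sign with voom (0.01), thinning (0.18) and without DNMT_WT D0 replicate 2 (0.32) or D2 replicate 2 (0.27). The cause of the differences was not tested.

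Between D2 and D0, calls were 304 (TET_KO, groups of the contrast alone), against 147. On deposited values they were 88 in TET_KO and 42 in TET_WT (main count 185), and with median centring 55 in TET_WT. Without a filter they were 81 in TET_KO, 35 in TET_WT, 328 in DNMT_KO (main count 514) and 235 in DNMT_WT (main count 354). Thinning gave 61, 37, 224 and 154 in the same order, and voom 164 in DNMT_WT. In TET_WT the higher and lower calls were 29 and 13 on deposited values and 86 and 43 with voom, against 101 and 84. In TET_KO against TET_WT at D0 (main count 52), calls were 4 on deposited values, 7 with median centring, 8 without a filter, 19 with voom, 8 with thinning and 19 with chromosomes centred. At D1 (16) they were 29 with the highest 5% of tiles, 2 with thinning and 30 with the groups of the contrast alone; on deposited values 7 were higher and 15 lower. At D2 (15) they were 7 on deposited values, with median centring, voom and thinning, 9 without a filter or with chromosomes centred, and 28 with the groups alone. For DNMT_KO against DNMT_WT at D2 (9) they were 2 on deposited values, 4 with the highest 5% of tiles, 4 without a filter, and 0 with median centring, voom, thinning and the groups alone. The DNMT interaction had 1 call with the replicate block and 1 with chromosomes centred.

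Leaving out 1 library gave 51 to 112 calls between D2 and D0 in TET_KO, 95 to 172 in TET_WT, 335 to 526 in DNMT_KO and 224 to 301 in DNMT_WT. TET_KO against TET_WT gave 10 to 142 at D0, 7 to 15 at D1 and 6 to 29 at D2. DNMT_KO against DNMT_WT gave 0 to 0 at D0 and D1 and 2 to 11 at D2, and the interactions 0 to 0 for TET and 0 to 1 for DNMT. With 1 library left in TET_KO at D2, that library is assumed to vary like the other groups. Calls that held whichever library was left out were 5 higher and 13 lower in TET_KO, 30 and 16 in TET_WT, 6 and 217 in DNMT_KO and 21 and 98 in DNMT_WT.

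Same-number correlations between libraries ran from -0.154 to 0.181. They were not set against pairs of different numbers, so whether the replicate numbers pair the libraries was not tested. With the replicate block, calls were 151 in TET_KO, 196 in TET_WT, 531 in DNMT_KO and 377 in DNMT_WT between D2 and D0, 64, 17 and 21 for TET_KO against TET_WT at D0, D1 and D2, and 0, 0 and 10 for the DNMT lines.

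Members at least 100 kb from genes held 0.450, 1.055 and 0.406% of reads at D0, D1 and D2 in TET_KO, 0.382, 1.196 and 0.410% in TET_WT, 0.507, 0.887 and 0.281% in DNMT_KO and 0.462, 0.856 and 0.364% in DNMT_WT. Without the members empty at D0 and D2, the D1 shares were 0.815% in TET_KO, 0.785% in TET_WT, 0.807% in DNMT_KO and 0.748% in DNMT_WT.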
